A study of Mus musculus with 24 samples.

Results

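Gene expression in the hearts of Rap1 KI/KI and wild-type (WT) mice was compared on 1-color Agilent arrays. The hearts gave 6 of the 24 arrays of the series, chosen by their tissue and genotype labels, 3 from WT and 3 from Rap1 KI/KI mice, all male. The remaining arrays held liver, brain and muscle RNA of the same design. Rap1 KI/KI mice carry the protein change I312R on both alleles of Terf2ip, the gene that encodes RAP1. The allele was made by CRISPR/Cas9 in the germline, so it is present in every cell type of the heart, and the line was backcrossed 4 times to C57BL6, as the labels write it, or C57BL/6N in the study's methods. WT mice do not carry it. The first mouse of each genotype (WT1 and KI1) was 5 months old and the others (WT2, WT3, KI2 and KI3) were 2 months old. RNA came from heart tissue of 1 mouse per array with no sorting of cells, and how the atria and the surrounding fat were trimmed is not given in the sources used here.

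RAP1 is a subunit of shelterin, the complex that covers telomeres, and it is held there by the shelterin protein TRF2. RAP1 also acts away from telomeres, where it has been tied to transcription and to NF-kappaB signaling, and the I312R change is used to break its contact with TRF2. The adult heart is a mixture. Ventricular and atrial cardiomyocytes carry the contractile proteins and burn mostly fatty acids, and endothelial cells, fibroblasts, smooth muscle, the mesothelium of the outer surface, resident leukocytes and attached fat all add RNA.

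The sequences that define the allele are shown because they set what differed between the genotypes by design. Both are read 5′ to 3′, with capitals on the codon whose change alters the protein.
guide: gaactgccattaaggtgATC
donor stretch: gaactgccattaaggtgCGGcgccagctaa
Counted from 1 at the 5′ end of the guide, the donor differed from it by A18C, T19G and C20G. The donor was designed with 4 changed bases, and the remaining one is silent, lies past the end of the guide in the next codon and is not marked here. The donor was 120 bases long, and the 30 bases around the edited codon are given.

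Values are log2 of the processed signal minus the 75th percentile of the same array, so a level of 0 is the brightness of that percentile and a difference of 1 is 2-fold. The percentile lay between 569.4 and 1107 intensity units, and 59.1% to 60.8% of probes were well above background on WT arrays against 62.6% to 65.6% on Rap1 KI/KI arrays. Of 34823 heart probes tested, 0 (0%) differed between genotypes at an adjusted p under 0.05 in limma, and the lowest adjusted p was 0.65. Without adjustment, 2616 probes passed 0.05. Taken per gene, 399 of 16093 genes (2.48%) were higher in Rap1 KI/KI hearts at an unadjusted p under 0.05 and 484 (3.01%) were lower. The balance of the split depended on the setting. It was 353 higher and 770 lower with normexp background correction, 428 and 903 with trend and robust moderation, and 468 and 1019 in a fit of all 24 arrays, and it turned round with blocks for age (456 higher and 388 lower), slide (589 and 553) or both (546 and 305). The 3 values of each genotype did not overlap in 545 genes (3.39%) that were higher and 1888 (11.7%) that were lower. A difference is given as Rap1 KI/KI minus WT with its standard error from limma over 3 mice against 3, which covers the spread among these mice only (WT1, WT2, KI1 and KI2 were on one slide, WT3 and KI3 on another), and no gene had an adjusted p below 0.65. Counts at an unadjusted p under 0.05 are therefore descriptions, to be read beside the shares over all genes given above.

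The tissue label was checked first. The 5 defining heart markers were bright in all 6 hearts. Myh6, the adult heavy chain of cardiac myosin, read 8.94, 8.56 and 9.35 in WT1, WT2 and WT3 and 8.51, 9.12 and 8.72 in KI1, KI2 and KI3. Cardiac troponin I (Tnni3) read 8.63, 8.24 and 8.91 in WT and 8.20, 8.68 and 8.20 in Rap1 KI/KI, and the genotypes overlapped for both genes. The median level of the 20 cardiac contractile genes was 7.89 to 8.46 in hearts, against -5.17 to -4.20 in liver and 0.23 to 5.99 in muscle.

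Atrial transcripts differed between hearts, and the heart that stood apart was WT1. Sarcolipin (Sln), the atrial regulator of the sarcoplasmic calcium pump, read -2.60, 7.49 and 8.32 in WT and 7.46, 6.58 and 8.32 in Rap1 KI/KI. The atrial myosin light chain Myl7 read -2.41, 6.64 and 7.47 against 6.67, 5.03 and 8.33, and Myl4 read 1.6, 8.56 and 9.34 against 8.5, 8.03 and 9.01. Bmp10, an atrial growth factor, read -4.61, -1.94 and -1.05 against -4.03, -2.67 and -0.02. WT1 was thus the lowest heart in each of these genes, and among the other 5 hearts the genotypes overlapped. Atrial natriuretic peptide (Nppa) read 7.0 in WT1 and 8.77 to 9.72 in the others. Averaged over 12 atrial genes and set against the WT mean, the hearts stood at -2.26, 0.80 and 1.46 in WT and 0.65, 0.38 and 1.69 in Rap1 KI/KI, and an exact permutation test over the 6 hearts gave p = 0.70. The median difference of the list was 0.38, with 0 of 12 members higher at an unadjusted p under 0.05, and it turned to -0.38 without WT1. In bulk tissue, fewer cells of a type and less RNA per cell cannot be told apart.

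Fat transcripts differed most in size. Among genes well above background on all 6 arrays, 132 were higher in Rap1 KI/KI hearts by over 1 at an unadjusted p under 0.05. Of these, 9 belonged to a list of 21 tested fat cell genes, and of the 30 genes higher by over 2, 8 did. Adiponectin (Adipoq), a hormone made by fat cells, read -4.23, 0.72 and -0.15 in WT and 4.05, 0.42 and 4.86 in Rap1 KI/KI. Perilipin 1 (Plin1), which coats the fat droplet, read -4.98, -1.25 and -1.39 against 2.09, -1.47 and 3.22. The beta-3 adrenergic receptor (Adrb3) read -6.75, -2.65 and -2.60 against 1.88, -1.30 and 2.44, a difference of 5.01 ± 1.39 (SE). KI1 and KI3 were high in all 3 genes, KI2 lay with or just above the WT hearts, and WT1 was far below every other heart. Leptin (Lep) was well above background only in KI1 and KI3.

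Over the whole fat cell list, 12 of 21 tested members were higher at an unadjusted p under 0.05, against 2.48% of all genes, and 0 were lower. Of the 21, 5 were higher without overlap between genotypes, against 3.39% of all genes. The median difference was 3.32, against -0.08 over all genes tested. Per heart, the list mean stood at -1.26, 0.61 and 0.65 in WT and 2.73, 0.76 and 3.61 in Rap1 KI/KI (exact permutation test, p = 0.10, the smallest that 3 against 3 allows). Leaving out KI1 and KI3 together brought the median to 0.23 and the count at p under 0.05 to 0, and leaving out WT1 brought that count to 4. Complement factor D (Cfd) was higher by 3.67 ± 1.41, carbonic anhydrase 3 (Car3) by 3.74 ± 1.38 and the glyceroneogenic enzyme Pck1 by 4.34 ± 1.55. The members brightest in WT hearts differed by less than these. Thrsp differed by 1.10 ± 0.42, Gpd1 by 0.68 ± 0.38 and Plin4 by 0.07 ± 0.22. The fatty acid carrier Fabp4 read 7.90, 7.63 and 7.77 in WT and 7.74, 7.95 and 8.17 in Rap1 KI/KI, a difference of 0.19 ± 0.21, and the triglyceride synthase Dgat2 differed by -0.22 ± 0.22. Uncoupling protein 1 (Ucp1), the heat-producing carrier of brown fat, read -6.97, -6.40 and -1.03 in WT and 4.96, -7.72 and 5.93 in Rap1 KI/KI, so that KI1 and KI3 held it and KI2 was the lowest of the 6 hearts.

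**Figure D1:**
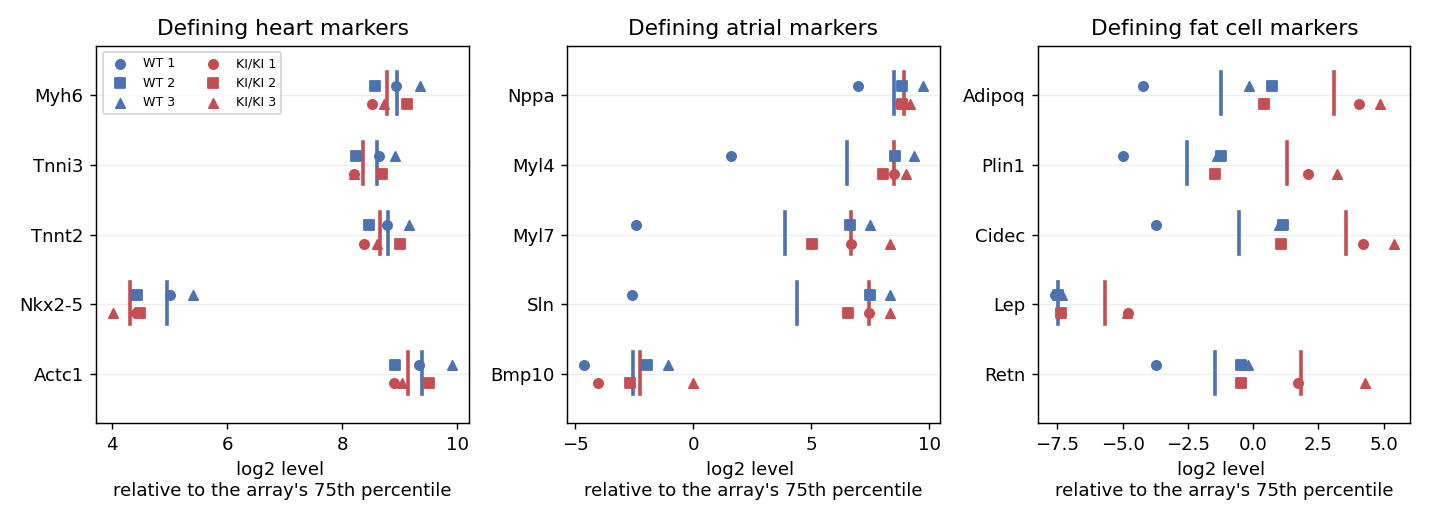
Level of the defining heart, atrial and fat cell markers in each of the 6 hearts, in log2 units on the scale of the array's 75th percentile, with 1 point per heart and a vertical line at each genotype mean. WT1 lies lowest for Sln (-2.60) and Myl7 (-2.41), and KI1 and KI3 lie highest for Adipoq (4.05 and 4.86).

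Other tissues of the outer wall and the vessels were examined in the same way. All 10 tested genes of the epicardium and mesothelium had a positive difference, with a median of 0.82. The mesothelial surface protein gene Lrrn4 read -2.29, -0.66 and -0.45 in WT and -0.30, -0.11 and 1.06 in Rap1 KI/KI. The epicardial transcription factor Wt1 read 1.23, 1.19 and 1.40 against 1.40, 1.89 and 2.15. The genotypes did not overlap in either gene, for Wt1 by less than the rounding, nor in the bladder and mesothelium gene Upk1b. These were 3 of the 10, against 3.39% of all genes higher without overlap. At an unadjusted p under 0.05, 0 of the 10 passed. The list mean was again lowest in WT1, at -0.88, and highest in KI3, at 1.5.

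Smooth muscle genes went in both directions. Smooth muscle actin (Acta2) read 5.54, 5.86 and 6.16 in WT and 7.50, 6.35 and 6.83 in Rap1 KI/KI, a difference of 1.04 ± 0.34, and calponin (Cnn1) read 1.59, 3.38 and 3.1 against 5.89, 3.08 and 5.34 (2.08 ± 0.80). Acta2 did not overlap, whereas Cnn1 in KI2 lay inside the WT range. Notch3, a receptor of pericytes and vascular smooth muscle, read 3.31, 3.22 and 3.58 against 2.90, 3.00 and 2.59 (-0.54 ± 0.22). Over the 10 genes of the list, 2 were higher and 1 lower at an unadjusted p under 0.05, against 2.48% and 3.01% of all genes. Of 14 endothelial genes, 13 had a negative difference, with a median of -0.33, and the receptor Tie1 read 2.34, 2.18 and 3.19 against 1.85, 1.89 and 1.32 (-0.88 ± 0.33). How far these cell types account for differences in other genes was not tested.

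The sign of the difference went with how bright a gene was. With the genes split into 5 equal parts from dim to bright, the median difference was 0.15, 0.04, -0.07, -0.14 and -0.23. Genes with no overlap and lower values in Rap1 KI/KI made up 2.24% of the dimmest part and 18.9% of the brightest, while the share with no overlap and higher values went from 5.87% to 1.06%. In the brightest part the median gene stood at 0.03, -0.12 and 0.11 relative to the WT mean in WT1, WT2 and WT3, and at -0.27, -0.05 and -0.37 in KI1, KI2 and KI3. KI2 again lay inside the WT range. The part of this trend in the lists of bright cardiac genes below was not tested. Quantile normalization, which forces the same distribution on all 6 arrays, left 302 genes higher and 492 lower at an unadjusted p under 0.05.

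**Figure D2:**
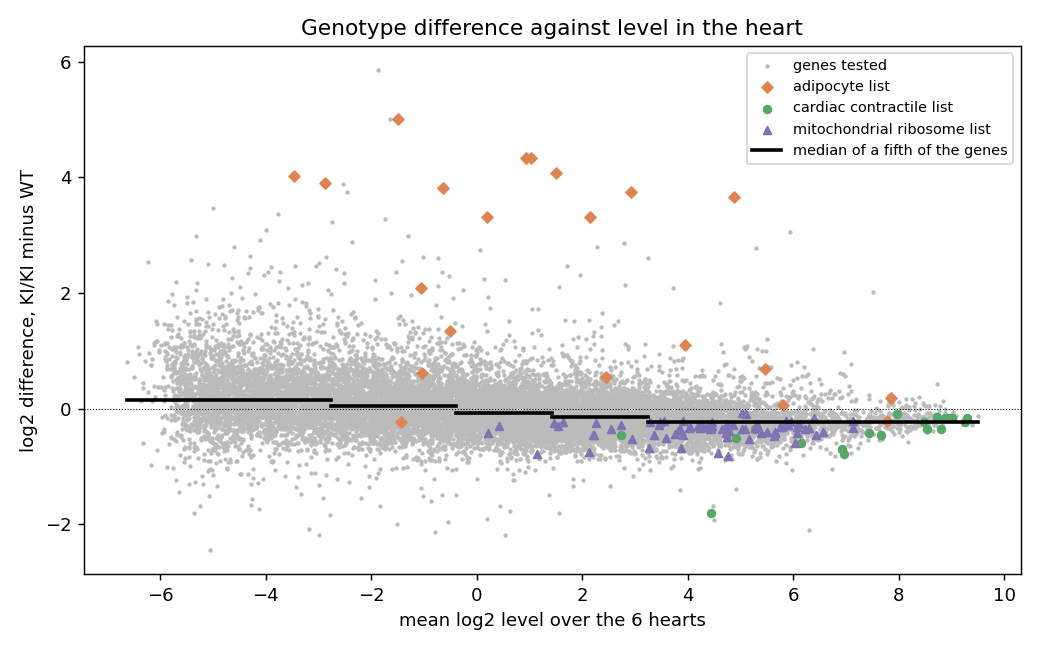
Difference between Rap1 KI/KI and WT hearts in log2 units against the level of the gene, with 1 grey point per gene, 3 gene lists in color, and a black line at the median of each of 5 equal parts from dim to bright. The median goes from 0.15 in the dimmest part to -0.23 in the brightest.

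The genes with the smallest p among those measured on all 6 arrays and not overlapping between genotypes are described next, 12 in each direction, chosen by those values. Among the lower genes, Plekhh1, which encodes a protein with pleckstrin homology and FERM domains, read 0.01, -0.25 and 0.04 in WT and -1.68, -1.81 and -1.5 in Rap1 KI/KI. Neuritin (Nrn1), a small membrane-anchored protein first known from neurons, read 1.31, 1.26 and 0.86 against -0.64, -1.16 and -0.48. Tceal7, a member of the transcription elongation factor A-like family, read -2.17, -2.72 and -1.49 against -3.78, -4.36 and -4.52. Differences were -1.6 ± 0.21, -1.91 ± 0.26 and -2.09 ± 0.37.

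The same set held the slow heavy chain of myosin, Myh7, which adult mouse ventricles keep low and which is known to return under load. Its values were 4.64, 5.68 and 5.72 in WT and 4.46, 2.99 and 3.17 in Rap1 KI/KI, a difference of -1.81 ± 0.48. The gap was between the 2-month-old hearts, at -2.63, and was -0.18 between the 5-month-old pair. Klhl34, a kelch-like gene, read 0.21, -0.58 and -0.41 against -1.01, -2.18 and -2.15. Pdzd3, a scaffold with PDZ domains, read 0.46, 0.16 and 0.67 against -0.60, -1.24 and -2.76, with KI3 the lowest. The long noncoding RNA Crnde (-0.80 ± 0.20), Sergef (-0.90 ± 0.24), the IP3-receptor binding protein gene Ahcyl2 (-0.84 ± 0.23), the potassium channel subunit Lrrc55 (-0.84 ± 0.23), the pseudogene Pdxk-ps (-1.04 ± 0.19) and the transcript 1700092K14Rik (-0.91 ± 0.23) completed the set. A probe for a pseudogene can also bind RNA of its parent gene, so Pdxk-ps and Cyp4b1-ps2 below are uncertain.

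Among the higher genes were both a nuclease and a conjugating enzyme of the interferon program. Isg20, an exonuclease that degrades RNA, read 4.78, 4.64 and 4.30 in WT and 5.63, 5.60 and 5.78 in Rap1 KI/KI (1.09 ± 0.21). Ube2l6, which attaches ISG15 to proteins, read 4.29, 4.19 and 4.03 against 5.31, 4.99 and 5.16 (0.98 ± 0.20). The adhesion protein teneurin 2 (Tenm2) read -5.05, -4.58 and -5.09 against -3.30, -3.73 and -2.71 (1.66 ± 0.31).

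The remaining 9 higher genes were dim and differed by 0.97 to 1.25. They were Mesp2, a transcription factor of somite formation, the glycerophosphodiesterase gene Gdpd2, the secretin receptor (Sctr), the peptide transporter Slc15a2, the noncoding RNA F930017D23Rik, the olfactory receptor Olfr190, the insulin receptor relative Insrr, the phosphatase subunit Ppp2r1b and the pseudogene Cyp4b1-ps2. Sctr read -1.28, -1.52 and -1.33 in WT and -0.45, -0.47 and -0.30 in Rap1 KI/KI, a narrow spread in both genotypes. Its 3 other probes, all dimmer, differed by 0.69, 3.99 and 2.85. The second probe of Isg20 gave 0.91. After normexp correction several of the dim genes differed by less, with 0.65 for Tenm2, 0.35 for F930017D23Rik, 0.37 for Olfr190 and 0.42 for Ppp2r1b among the higher genes and -0.48 for 1700092K14Rik, -0.48 for Lrrc55, -0.52 for Pdxk-ps and -1.25 for Tceal7 among the lower.

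**Figure D3:**
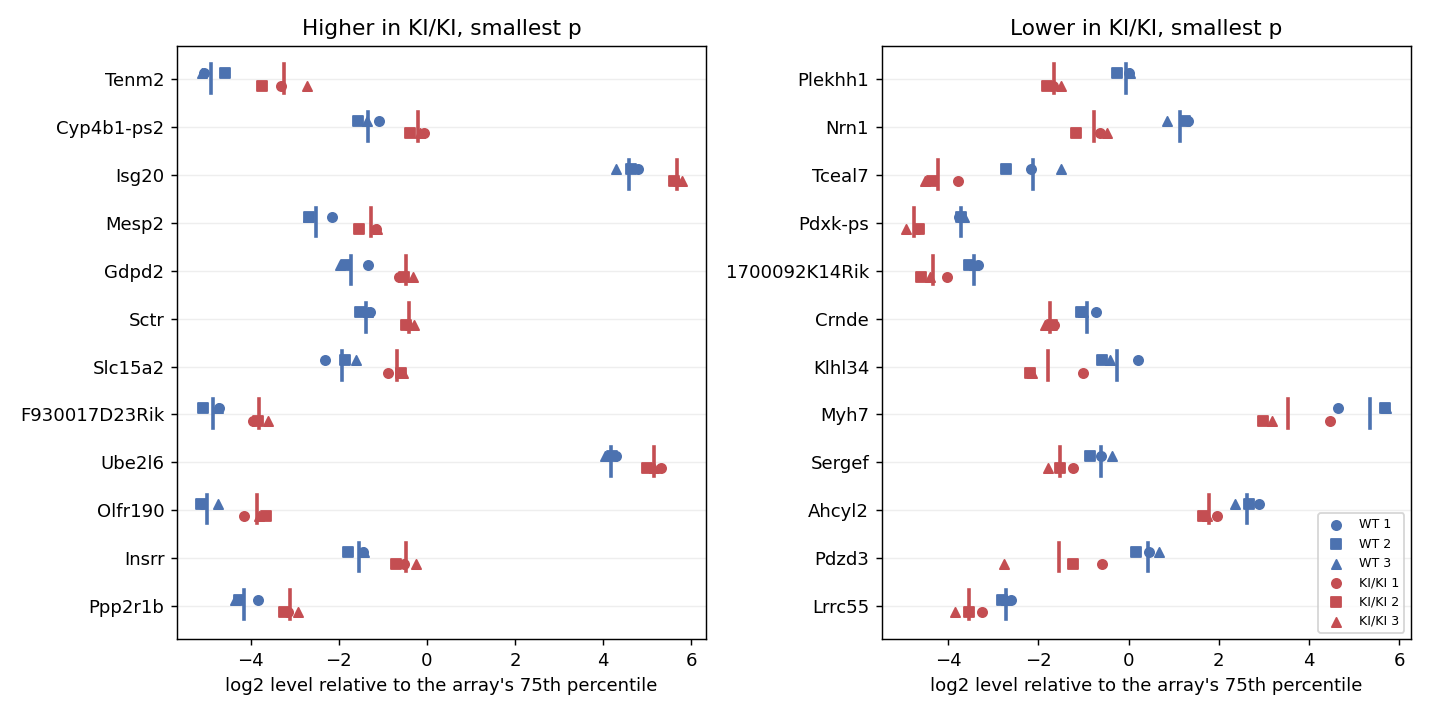
Level of the 12 lower and 12 higher genes in each of the 6 hearts, in log2 units on the scale of the array's 75th percentile, with 1 point per heart and a vertical line at each genotype mean. No gene overlaps between genotypes because that was part of how they were chosen, and Pdzd3 (-0.60 to -2.76) has the widest spread among Rap1 KI/KI hearts.

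Among all genes called higher at an unadjusted p under 0.05, KI2 was the lowest of the 3 Rap1 KI/KI hearts in 263 of 399 (65.9%), against 26.2% of all genes tested, and WT1 was the lowest of the WT hearts in 203 (50.9%), against 29.3%. Among the 484 lower genes KI2 was the lowest Rap1 KI/KI heart in 54 (11.2%), against the same 26.2% of all genes. It was the highest Rap1 KI/KI heart in 182 of them (37.6%), below the 42.9% of all genes tested.

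Detection added a small set. Of 16093 genes tested, 41 were well above background in all 3 Rap1 KI/KI hearts and in no WT heart, and 2 were the reverse. Such genes entered the test only through the genotype in which they were detected. Detection was also higher over the whole Rap1 KI/KI arrays, at 62.6% to 65.6% of probes against 59.1% to 60.8% in WT. The part of this in the count of 41 against 2 was not tested, so the counts are descriptions only. For these only a bound can be given, the mean of the detected genotype against the detection limit or the probe itself, whichever was higher. In Rap1 KI/KI hearts complexin 1 (Cplx1), a regulator of vesicle fusion, was higher by at least 5.0-fold, with -2.67, -4.97 and -1.58 in KI1, KI2 and KI3. Hcar2, the niacin receptor that fat cells carry, was at least 4.8-fold higher, with -2.89, -5.42 and -1.49. KI2 was the lowest of the 3 in both, as in the fat cell genes. The homeobox gene Six3 was at least 2.4-fold higher and even across the Rap1 KI/KI hearts at -4.22, -3.91 and -4.51. The neuronal RNA-binding gene Elavl3 (at least 2.3-fold) and Arhgap36 (at least 1.9-fold) followed. Elavl3 overlapped, at -6.32, -6.27 and -4.71 in WT and -4.98, -4.75 and -2.69 in Rap1 KI/KI, with KI3 the highest. In the other direction, the natural killer receptor gene Klra6 was at least 2.5-fold lower and the water channel Aqp6 at least 2.1-fold lower. These bounds rest on the processed signal. After normexp correction the log2 differences were 0.98 for Cplx1, 1.24 for Hcar2, 0.39 for Six3, 0.44 for Elavl3, 0.43 for Arhgap36, -0.57 for Klra6 and -0.37 for Aqp6, all smaller than the stated bounds.

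Contractile genes all had a negative difference, 20 of 20, with a median of -0.35 against -0.08 over all genes. At an unadjusted p under 0.05, 4 were lower, against 3.01% of all genes, and 0 higher. Of the 20, 5 were lower without overlap, against 11.7% of all genes and 18.9% of the brightest part, where the median was -0.23. Besides Myh7 these included troponin C (Tnnc1), the calcium sensor of the thin filament, at 7.50, 7.01 and 7.56 in WT and 6.70, 6.69 and 6.34 in Rap1 KI/KI (-0.78 ± 0.24). The Z-disc crosslinker Actn2 read 7.35, 6.99 and 7.49 against 6.76, 6.73 and 6.24 (-0.70 ± 0.25). The M-band protein gene Myom1 differed by -0.60 ± 0.25 and the Z-disc gene Ldb3 by -0.36 ± 0.19, both without overlap. The most abundant sarcomere genes overlapped, with Myh6 at -0.17 ± 0.28, cardiac actin (Actc1) at -0.24 ± 0.32, Tpm1 at -0.16 ± 0.29 and Myl3 at -0.16 ± 0.29. The list mean per heart was 0.03, -0.25 and 0.22 in WT and -0.47, -0.18 and -0.60 in Rap1 KI/KI (exact permutation p = 0.20), with KI2 inside the WT range. Under quantile normalization the median was -0.17, and with KI2 as the lone Rap1 KI/KI heart it was -0.01.

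Genes that mark load on the ventricle had the lowest median of the cardiac lists, -0.82 over 10 genes. Skeletal actin (Acta1), a fetal isoform, read 5.02, 4.87 and 6.47 in WT and 4.88, 3.65 and 2.04 in Rap1 KI/KI (-1.93 ± 0.76). Brain natriuretic peptide (Nppb) read 6.45, 4.90 and 5.47 against 4.63, 2.93 and 5.10 (-1.39 ± 0.64). The titin-associated gene Ankrd1 read 7.47, 6.78 and 7.36 against 6.86, 5.74 and 6.56, and the stress cytokine gene Gdf15 read -0.59, -1.01 and 0.03 against -0.51, -1.64 and -2.16. KI2 was the lowest heart for Nppb and Ankrd1 and KI3 for Acta1 and Gdf15, and KI1 lay inside the WT range except for Nppb. At an unadjusted p under 0.05, 2 of the 10 were lower, Myh7 and Acta1, against 3.01% of all genes, and 0 were higher. Only Myh7 was lower without overlap, 1 of 10 against 11.7% of all genes. The list mean was -0.27, 0.00 and 0.27 in WT and -0.06, -1.11 and -0.86 in Rap1 KI/KI, and the genotype difference of that mean was 0.21 between the 5-month-old hearts and -1.12 between the 2-month-old hearts. With KI2 as the lone Rap1 KI/KI heart the median of the list was -1.02. Nppa (0.42 ± 0.65) and the matrix signaling gene Ccn2 (0.44 ± 0.37) had positive differences with overlap, and Ccn2 turned to -0.27 with KI2 alone.

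**Figure D4:**
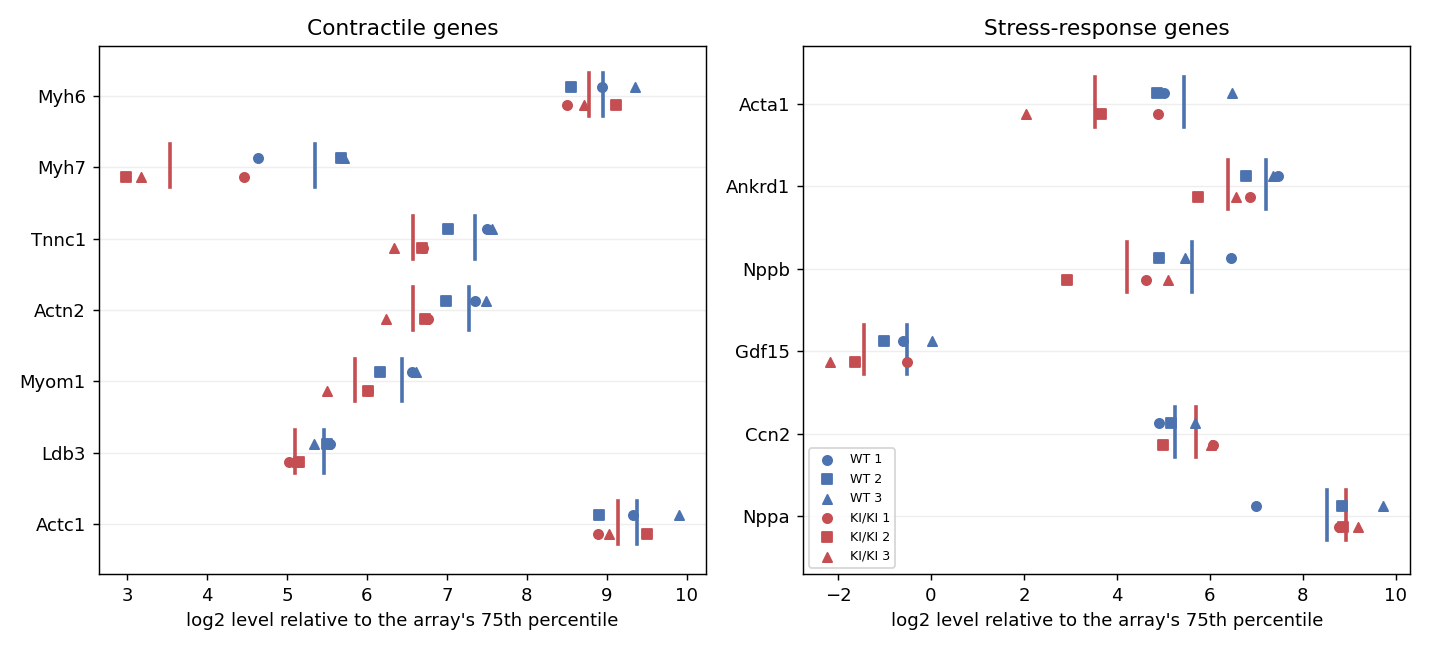
Level of contractile and load-marker genes in each of the 6 hearts, in log2 units on the scale of the array's 75th percentile, with 1 point per heart and a vertical line at each genotype mean. KI2 and KI3 lie lowest for Myh7 (2.99 and 3.17), while KI1 (4.46) stays near WT1 (4.64).

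Calcium handling genes had a median of -0.24 over 16, with 2 lower at an unadjusted p under 0.05, against 3.01% of all genes. Of the 16, 4 were lower without overlap, against 11.7% of all genes and 18.9% of the brightest part, whose median was -0.23. Quantile normalization gave a list median of -0.08. S100a1, a calcium sensor that raises pump and release channel activity, read 6.28, 5.70 and 6.44 in WT and 5.53, 5.47 and 4.95 in Rap1 KI/KI (-0.82 ± 0.29). Calsequestrin (Casq2), which stores calcium in the sarcoplasmic reticulum, read 6.34, 6.33 and 6.14 against 5.79, 5.84 and 5.17 (-0.67 ± 0.25). The pump gene Atp2a2 (-0.18 ± 0.22) and its inhibitor phospholamban, Pln (-0.02 ± 0.44), overlapped.

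Of 17 cardiac ion channel genes, 1 was lower at an unadjusted p under 0.05, against 3.01% of all genes. That was Kcnj11, the pore of the ATP-sensitive potassium channel, at 0.83, 0.96 and 2.18 in WT and 0.14, 0.31 and -0.18 in Rap1 KI/KI (-1.24 ± 0.39). Its regulatory partner Abcc9 read 5.40, 5.05 and 5.39 against 4.79, 5.09 and 3.93 (-0.68 ± 0.33), and KI2 lay inside the WT range. The background potassium channel Kcnk3 was without overlap at -0.58 ± 0.30. Kcnd3, which carries the transient outward current, was the 1 channel higher without overlap, at 0.32 ± 0.22.

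Among 20 cardiac transcription factors the median was -0.18. Srf, the activator of muscle actin genes, read 3.32, 3.19 and 3.68 in WT and 2.89, 2.78 and 2.51 in Rap1 KI/KI (-0.67 ± 0.23). Ppargc1b, a coactivator of mitochondrial genes, read 1.91, 1.76 and 1.59 against 1.24, 1.37 and 0.86 (-0.60 ± 0.22). These were the 2 members lower at that p, against 3.01% of all genes, with 0 higher. Nkx2-5 differed by -0.64 ± 0.30 and Gata4 by -0.54 ± 0.26, both with overlap. Of 9 intercalated disc genes 8 were below 0, with a median of -0.35, and the actin anchor Nrap was the 1 lower at that p (-0.87 ± 0.36). In the ventricular list, Irx4, a ventricle-specific transcription factor, read 3.03, 2.74 and 2.81 against 2.17, 2.54 and 1.32 (-0.85 ± 0.34), whereas the ventricular light chain Myl2 overlapped (-0.16 ± 0.27).

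Fuel genes mostly overlapped between genotypes. Fatty acid uptake and oxidation genes had a median of -0.25, with 21 of 25 negative. At an unadjusted p under 0.05, 1 was lower, against 3.01% of all genes, and 2 did not overlap, against 11.7%. The list median was -0.07 under quantile normalization and 0.12 with KI2 as the lone Rap1 KI/KI heart. The 1 lower was Hadha, of the mitochondrial trifunctional protein, at 4.6, 4.31 and 5.11 in WT and 4.07, 4.08 and 3.33 in Rap1 KI/KI (-0.85 ± 0.32). Its partner Hadhb read 8.18, 7.92 and 8.26 against 7.80, 8.02 and 7.22 (-0.44 ± 0.27). In the glucose uptake and glycolysis list, 20 of 23 were negative, the median was -0.35 (-0.23 under quantile normalization) and 7 did not overlap, against 11.7% of all genes and 18.9% of the brightest part. The phosphofructokinase genes Pfkl (-0.88 ± 0.31) and Pfkm (-0.60 ± 0.27) and the pyruvate dehydrogenase kinase Pdk2 (-0.82 ± 0.32) were among these, while Gapdh overlapped at -0.16 ± 0.28. Muscle creatine kinase (Ckm) read 6.13, 5.60 and 6.65 against 5.39, 5.70 and 4.55 (-0.91 ± 0.39).

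The lists for the citrate cycle (22 of 22) and respiratory complex I (37 of 37) were negative throughout, with medians of -0.27 and -0.28, yet 0 of their members passed an unadjusted p under 0.05 and 0 were without overlap. For complex I the mean per heart was 0.09, -0.25 and 0.16 in WT and -0.39, 0.09 and -0.55 in Rap1 KI/KI. KI2 equaled WT1 there, and with KI2 as the lone Rap1 KI/KI heart the median was 0.11. The complex I subunit gene Ndufa7 read 8.03, 7.56 and 8.11 against 7.37, 7.69 and 7.02 (-0.54 ± 0.27). Quantile normalization brought the 2 medians to -0.10 for the citrate cycle and -0.11 for complex I. The differences in list means were also uneven between slides. On the slide with WT1, WT2, KI1 and KI2 they were -0.15 for the citrate cycle and -0.07 for complex I. Between WT3 and KI3, on the other slide, they were -0.55 and -0.72.

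The mitochondrial ribosome, which makes the respiratory subunits encoded in mitochondria, had 75 of 75 tested genes below 0. The median was -0.34, and 6 were lower at an unadjusted p under 0.05, against 3.01% of all genes. Without overlap there were 14, against 11.7% of all genes and 18.9% of the brightest part. Mrpl9 read 2.43, 2.32 and 2.77 in WT and 1.90, 1.81 and 1.56 in Rap1 KI/KI (-0.75 ± 0.22), and Mrps18a read 5.24, 4.95 and 5.32 against 4.61, 4.62 and 3.83 (-0.82 ± 0.28). In both, KI2 lay below the lowest WT heart. The list mean was 0.17, -0.16 and -0.01 in WT and -0.34, -0.09 and -0.69 in Rap1 KI/KI. Quantile normalization gave a median of -0.15.

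Proteasome genes behaved alike in size. Of 30, 28 were negative, the median was -0.30, and 10 did not overlap, against 11.7% of all genes and 18.9% of the brightest part. The 1 with an unadjusted p under 0.05 was Psmd13, a lid subunit, at 4.25, 4.07 and 4.67 against 3.78, 3.81 and 3.64 (-0.59 ± 0.23). The base subunits Psmc5 (-0.56 ± 0.24) and Psmd2 (-0.72 ± 0.32) and the core subunit Psmb3 (-0.52 ± 0.25) did not overlap either. The list mean was 0.18, -0.09 and -0.09 in WT and -0.27, -0.12 and -0.57 in Rap1 KI/KI, an exact permutation p of 0.10, although KI2 missed the WT range by a small margin. Quantile normalization gave a median of -0.10. All 17 heat shock chaperones were negative, with a median of -0.39 and 0 at an unadjusted p under 0.05. Without overlap there was 1 (Hsp90b1, -0.60 ± 0.30), against 11.7% of all genes. Their list mean was 0.10, -0.25 and 0.15 in WT and -0.21, -0.05 and -0.75 in Rap1 KI/KI, with KI1 and KI2 inside the WT range. The median was -0.22 under quantile normalization and -0.05 with KI2 as the lone Rap1 KI/KI heart.

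**Figure D5:**
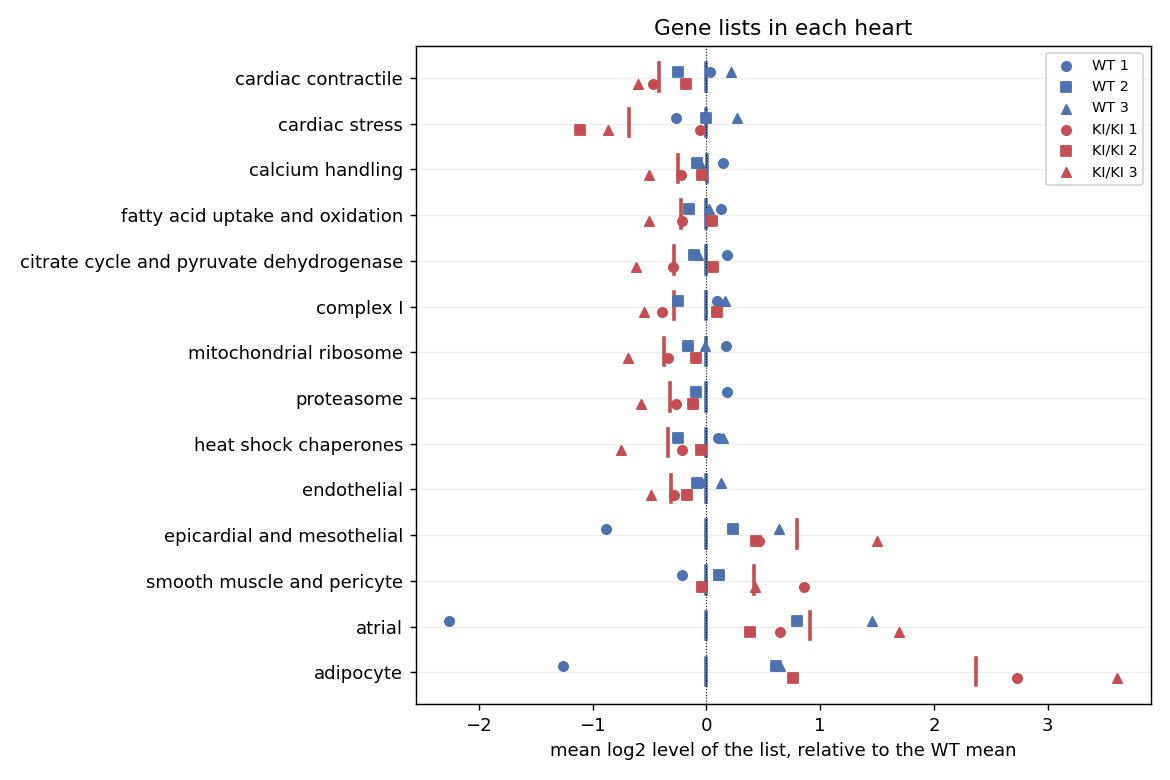
Mean level of cardiac, metabolic and cell type gene lists in each of the 6 hearts, in log2 units relative to the WT mean, with 1 point per heart and a vertical line at each genotype mean. The fat cell (adipocyte) list separates KI1 (2.73) and KI3 (3.61) from the rest, and for complex I KI2 (0.09) lies with the WT hearts.

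Shelterin itself was examined gene by gene. Terf2ip read 1.56, 1.40 and 1.20 in WT and 1.22, 1.02 and 0.69 in Rap1 KI/KI (-0.41 ± 0.23), with KI1 inside the WT range. The change is a missense allele, so the level of this transcript does not check the genotype labels. Pot1b, a single-strand telomere binding protein, was well above background in 3 Rap1 KI/KI hearts and no WT heart, at -5.31, -5.25 and -5.0 against -5.66, -5.76 and -6.29, and was at least 1.3-fold higher. After normexp correction its difference was 0.02. Tinf2 read 0.92, 0.94 and 1.08 against 0.71, 0.50 and 0.66 (-0.36 ± 0.19) and Pot1a read 1.69, 1.36 and 1.77 against 1.27, 1.34 and 1.08 (-0.38 ± 0.21), both without overlap. Terf1 (0.05 ± 0.18), Terf2 (0.08 ± 0.20), which encodes TRF2, and Acd (-0.15 ± 0.24) overlapped.

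The 10 genes on each side of Terf2ip were also read. Of the 15 tested, Vat1l was the 1 higher at an unadjusted p under 0.05, at -6.24, -2.69 and -4.02 in WT and -0.06, -2.97 and 1.30 in Rap1 KI/KI, and KI1 and KI3 were high as in the fat cell genes. Over all genes, 2.48% were higher at that p. Wwox was higher without overlap (0.38 ± 0.19, and 0.24 after normexp correction), and the lysyl-tRNA synthetase gene Kars (-0.41 ± 0.22) and Cfdp1 (-0.22 ± 0.19) were lower without overlap. These were 1 and 2 of the 15, against 3.39% and 11.7% of all genes, so the lower count was near the share of all genes.

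For DNA damage and p53, the median over 17 genes was -0.08, the same as over all genes. At an unadjusted p under 0.05, 1 of the 17 was higher and 0 were lower, against 2.48% and 3.01% of all genes. Without overlap 1 was higher and 1 lower, against 3.39% and 11.7%. Trp53inp1, a p53 target that promotes cell death and autophagy, was the 1 higher at an unadjusted p under 0.05, at 0.73, 1.16 and 0.52 in WT and 1.25, 1.55 and 1.37 in Rap1 KI/KI (0.58 ± 0.24). Bax, a pore-forming protein of apoptosis, was lower without overlap at 2.31, 2.38 and 3.12 against 2.08, 2.21 and 2.13 (-0.46 ± 0.27). The p53 targets Mdm2 (-0.21 ± 0.21) and Phlda3 (0.30 ± 0.31) overlapped. Of 20 mitotic genes, 9 had a positive difference and 11 a negative one. The spindle protein gene Nusap1 (1.03 ± 0.33) was the 1 higher at that p and the 1 higher without overlap. Aurka (-0.34 ± 0.21) was the 1 lower without overlap, against the same shares of all genes. Mki67 differed by 0.00 ± 0.19.

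The interferon list had a median of -0.02 over 21 genes, with 9 differences positive and 12 negative. At an unadjusted p under 0.05, 1 of the 21 was higher, against 2.48% of all genes. Without overlap 1 was higher and 1 lower, against 3.39% and 11.7% of all genes. Rsad2, an antiviral enzyme, was its 1 member higher at an unadjusted p under 0.05, at 3.14, 2.95 and 2.72 in WT and 3.66, 3.61 and 3.74 in Rap1 KI/KI (0.73 ± 0.20). Rsad2 was higher in each Rap1 KI/KI heart than in any WT heart. The same holds for Isg20 and Ube2l6 above, but those were chosen for not overlapping and lend Rsad2 no weight. Among the other members, Isg15 read 3.07, 3.24 and 3.97 against 3.54, 4.12 and 3.76 (0.38 ± 0.31) and Bst2 was lower without overlap (-0.53 ± 0.26). In the cytokine and NF-kappaB list the median was 0.01 over 21 genes. Without overlap 1 of them was higher and 3 were lower, near the 3.39% and 11.7% of all genes. The higher one was the inflammasome sensor Nlrp3 (0.50 ± 0.21, and 0.07 after normexp correction). The lower ones were Nfkb2 (-0.72 ± 0.34), Relb (-0.42 ± 0.25) and Pycard (-0.25 ± 0.19), and Rela (-0.11 ± 0.22) overlapped.

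Complement genes had a median of 0.31, with 12 of 17 positive. At an unadjusted p under 0.05, 1 was higher, against 2.48% of all genes. C3, the central component, read 6.48, 6.64 and 7.02 in WT and 7.17, 7.28 and 7.37 in Rap1 KI/KI (0.56 ± 0.22). Factor B (Cfb) read -1.28, 0.20 and -0.39 against 1.03, -0.45 and 1.17, and C2 read 0.31, 1.81 and 2.31 against 2.14, 2.05 and 3.85, both with overlap. With KI2 as the lone Rap1 KI/KI heart the list median was -0.03. All 7 MHC class II genes tested were negative, with a median of -0.45, 0 at an unadjusted p under 0.05 and 0 without overlap. The invariant chain gene Cd74 read 4.25, 3.95 and 4.71 against 4.06, 3.58 and 3.03 (-0.74 ± 0.33).

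Matrix genes went in both directions. The proteoglycan biglycan (Bgn) read 1.67, 1.46 and 0.76 in WT and 3.07, 1.95 and 2.60 in Rap1 KI/KI (1.24 ± 0.37), and the crosslinking enzyme gene Lox differed by 1.12 ± 0.46 (0.65 after normexp correction). The basement membrane collagen gene Col4a2 read 4.44, 4.19 and 4.75 against 3.90, 4.07 and 3.47 (-0.65 ± 0.26), and Col8a1 differed by -0.61 ± 0.25. These 4 were the members of 23 with an unadjusted p under 0.05, with Bgn, Col4a2 and Col8a1 free of overlap. Over all genes, 2.48% were higher and 3.01% lower at that p, and 3.39% and 11.7% were so without overlap. Fibrillar Col1a1 read 3.87, 5.39 and 5.13 against 5.08, 5.05 and 5.85, with WT1 the lowest heart. The list median of 0.19 became 0.34 under quantile normalization and -0.05 without WT1.

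The genotype difference in the heart was set against that in the other tissues of the series with an interaction term. Against muscle, 0 of 31205 probes (0%) differed at an adjusted p under 0.05, the lowest adjusted p was 1, and 755 had an unadjusted p under 0.05. Against the mean of liver, brain and muscle the count was 0 of 34719 (0%), with a lowest adjusted p of 0.62 and 1809 at an unadjusted p under 0.05. Plekhh1 had the smallest p of that comparison, with -1.6 in the heart and 0.45 in the mean of the others (difference -2.05 ± 0.36, limma adjusted p = 0.62). Slc25a37, which brings iron into mitochondria, differed by 0.71 in the heart and -0.27 elsewhere (0.98 ± 0.20), and the skeletal myosin binding protein gene Mybpc2 by -1.81 and 0.51 (-2.32 ± 0.55), each with an adjusted p of 0.88. Isg20 was higher in both heart (1.09) and muscle (0.65), and so was Rsad2 (0.73 and 0.71), with differences between the tissues of 0.44 ± 0.35 and 0.02 ± 0.30. Liver, brain, muscle and heart were labelled with the same animal numbers, genotypes and ages, so by their labels the tissues share animals. The interaction fits above treated their arrays as independent, and fits with the mouse as a replicate block are given below.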

How the data were processed

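The arrays were Agilent 1-color 8x60K slides hybridized with Cy3-labelled RNA, scanned and extracted with Feature Extraction 12.0.3.1, per the file headers. The deposited intensity of each spot is the processed signal after the background subtraction of Feature Extraction. The authors' table of the whole series holds scores, per-array z-scores of the log10 signal, and was used only as an alternative. From the deposited intensities, log2 of the processed signal minus the 75th percentile of the array was computed over non-control probes, and repeated spots of a probe were averaged. A probe entered the test if 3 or more of the 6 hearts gave it as well above background. The test was limma 3.58.1 (lmFit, eBayes; R 4.3.3), genotype being the only term, with Benjamini-Hochberg adjustment. A gene took its brightest probe, and of 55681 probes 28331 carried a gene name here. A value not above background in 1 genotype was given as a bound. The number of arrays limits the precision. Interactions with tissue used limma on the arrays of the tissues compared, and lists were described by counts, medians and an exact two-sided permutation test of their mean over the hearts.

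Genes named were the 12 higher and 12 lower with the smallest unadjusted p, detected on 6 arrays and not overlapping, 5 bounds each way (2 existed for lower genes), shelterin genes, the members of each list with the smallest p or highest level, and the 5 with the smallest p in each interaction. The members and lists were chosen with earlier results of these data known. Alternatives were quantile normalization, normexp with an offset of 50, for which the median signal was used, the z-scores, other filters on dim probes, age and slide as blocks, trend and robust eBayes, all 24 arrays in 1 fit, another rule for several probes of a gene, each heart left out and KI1 and KI3 left out together. The robust fit and the mouse block used statmod 1.5.0. The test was checked on simulated data. Some items are not reported here.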

Additional observations from a re-analysis of the deposited data

Results flagged for a closer look

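Neuritin (Nrn1) went in opposite directions in the 2 striated tissues. In the heart each Rap1 KI/KI value was below each WT value, with a difference of -1.91. In muscle it was above in each, at -2.26, -2.30 and -2.39 in WT and -1.94, -1.54 and 1.16 in Rap1 KI/KI, a difference of 1.55 that rested largely on the third mouse. The difference between the tissues had an unadjusted p of 0.0022 and an adjusted p of 1 in limma, with the arrays treated as independent. A list of 11 neuronal and Schwann cell genes stood at 0.27, 0.03 and 0.84 in the 3 Rap1 KI/KI muscles relative to the WT mean and was thus highest in the same muscle. Its part in the result was not tested.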

How the results depend on the processing

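The count of heart probes at an adjusted p under 0.05 was 0 in every setting tried, with the lowest adjusted p between 0.25 and 1, and the interactions with the other tissues also gave 0 throughout. With the mouse as a replicate block the interactions gave 0 probes, with lowest adjusted p of 1 against muscle and 0.55 against the 3 tissues. Counts at an unadjusted p under 0.05 moved. The balance of 399 higher and 484 lower turned round with blocks for age (456 and 388), slide (589 and 553) or both (546 and 305). Of genes lower, normexp gave 770, trend and robust moderation gave 903, and a fit of all 24 arrays gave 1019. Leaving out 1 heart at a time gave 138 to 635 genes higher and 73 to 753 lower, both lowest without KI3. Without KI1 and KI3 there were 48 higher and 58 lower, and the list medians were -0.01 for contractile genes, -0.03 for the mitochondrial ribosome, -0.09 for the proteasome and 0.23 for fat cell genes. Quantile normalization gave -0.10 for the proteasome. With KI2 as the lone Rap1 KI/KI heart, which is then assumed to vary like WT, the sign turned for fatty acid oxidation (0.12), the citrate cycle (0.12), complex I (0.11), complex III (0.11), complex IV (0.17), complex V (0.16), ventricular genes (0.16) and cardiac transcription factors (0.08), and for Ucp1 (-2.91) and Ccn2 (-0.27). Without WT1 the sign turned for Sln (-0.45), Myl4 (-0.43) and Myl7 (-0.38), which without WT3 were 5.01, 3.44 and 4.56. Jchain went from 1.65 to -0.34 without KI3, -0.26 without KI1 and KI3, and 2.69 without KI1. On the slide with WT1, WT2, KI1 and KI2 the differences in list means were -0.22 for contractile genes and 0.03 for complex IV. They were -0.22 for the mitochondrial ribosome and -0.06 for heat shock chaperones. Between WT3 and KI3 on the other slide they were -0.81, -0.59, -0.67 and -0.89 in the same order. The clock list went the other way, at -0.22 on the first of these slides and -0.10 on the other. The cause of these changes was not tested. With 3 hearts a genotype and ages and slides mixed, small differences cannot be told from the spread.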

Other observations

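Of 18 clock genes 5 had a positive difference, and the median was -0.15, or -0.03 under quantile normalization. The list mean was -0.03, 0.02 and 0.01 in WT1, WT2 and WT3 and -0.21, -0.26 and -0.09 in KI1, KI2 and KI3, without overlap, and an exact permutation test gave p = 0.10. Ciart, a repressor of the clock, read 0.78, 1.14 and 1.20 in WT and 0.07, -0.27 and 0.59 in Rap1 KI/KI (-0.91 ± 0.28) and was the 1 member lower at an unadjusted limma p under 0.05, with 0 higher. Over all genes, 3.01% were lower at that p. Bhlhe41 was also without overlap (-0.60 ± 0.28), which made 2 of 18 lower without overlap. That was near the 11.7% of all genes. The clock output gene Dbp (-0.24 ± 0.25) and Per1 (-0.14 ± 0.29) overlapped. The time of day of tissue collection is not given in the sources used here.

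Alas2, the first enzyme of heme synthesis in red cells, read 6.52, 6.45 and 6.98 in WT and 7.18, 7.10 and 7.47 in Rap1 KI/KI (0.60 ± 0.24), without overlap. Alpha globin (Hba-a1) differed by -0.12 ± 0.29, and the near-identical Hba-a2 cannot be told apart from it on these probes.

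Leukocyte genes varied from heart to heart. The B cell gene Ms4a1 read -2.31, -1.0 and -2.36 in WT and -0.51, -0.83 and -0.84 in Rap1 KI/KI (1.16 ± 0.39), whereas the antibody-joining chain Jchain was high in KI3 alone at 1.65, with -4.50 to -3.48 in WT and -4.40 and -4.24 in KI1 and KI2. The hemoglobin scavenger receptor of macrophages, Cd163, read -4.70, -5.13 and -4.90 against -4.40, -4.34 and -4.39 (0.53 ± 0.20, and 0.02 after normexp correction), while Csf1r, carried by macrophages in general, differed by 0.09 ± 0.20. Over 10 neutrophil genes the list mean ranged from -1.42 in WT1 to 1.51 in WT2, a spread that held all 3 Rap1 KI/KI hearts.

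KI3 held the highest values of the fat cell, atrial and epicardial lists.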
